A study of Mus musculus with 12 samples.

Results

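The transforming growth factor beta (TGF-beta) core set comprised 10 genes: the ligands Tgfb1, Tgfb2 and Tgfb3, the receptors Tgfbr1, Tgfbr2 and Tgfbr3, and the SMAD genes Smad2, Smad3, Smad4 and Smad7. They were taken by gene symbol from the 54532 genes in tables of read counts and FPKM, and each symbol matched 1 gene. The study examined upstream regulators of its expression data, SMAD4 included, and the levels of these 10 genes across the 3 diet groups are described here. The data were RNA-seq profiles of 12 mammary tumors of MMTV-Neu mice, females whose MMTV promoter drives wild-type, unactivated Neu in the mammary gland. Tumor-bearing mice were fed a control diet with vehicle, MSU-42011 at 100 mg/kg diet or bexarotene at 100 mg/kg diet for 10 days, with 4 tumors in each group, and both compounds are agonists of the retinoid X receptor (RXR). The animals' age is not given in the sources used here, the vehicle of ethanol and coconut oil was in all 3 diets, and each library came from 1 tumor, so the promoter-driven transgene, the sex and the vehicle were shared by every group.

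TGF-beta ligands are secreted in a latent form, held in the matrix by binding proteins and released by integrins and proteases. The active ligand binds the kinase receptor encoded by Tgfbr2, which recruits and phosphorylates the kinase receptor encoded by Tgfbr1, while the proteoglycan encoded by Tgfbr3 (betaglycan) presents ligand, above all TGF-beta2, to them. The receptors phosphorylate SMAD2 and SMAD3, which join the common partner SMAD4 and enter the nucleus, and SMAD7, itself induced by the pathway, feeds back on the receptors. In mammary epithelium the pathway is known to restrain growth and, in later tumors, to accompany invasion and stromal matrix production.

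The 3 ligand genes encode closely related proteins, and their reads have to be told apart before levels are compared. Their last 90 coding bases, stop codon included, are shown for 1 GENCODE M21 transcript each, because this end encodes part of the mature growth factor, the most conserved part of the family. Capitals mark the 58 bases that are identical in all 3 genes.
Tgfb1: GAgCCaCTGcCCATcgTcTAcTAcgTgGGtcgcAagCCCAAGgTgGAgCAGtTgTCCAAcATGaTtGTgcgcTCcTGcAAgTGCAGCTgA
Tgfb2: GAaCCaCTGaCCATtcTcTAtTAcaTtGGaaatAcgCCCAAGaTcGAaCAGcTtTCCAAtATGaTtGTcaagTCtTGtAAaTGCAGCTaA
Tgfb3: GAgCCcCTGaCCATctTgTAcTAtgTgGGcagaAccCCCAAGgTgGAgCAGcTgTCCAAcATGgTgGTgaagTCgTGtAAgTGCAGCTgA
Over these 90 bases Tgfb1 and Tgfb3 were 80% identical, Tgfb2 and Tgfb3 73.3% and Tgfb1 and Tgfb2 71.1%. The longest run of identical bases anywhere between the transcripts of any pair of ligands was 15 bases, and between Smad2 and Smad3 it was 23 bases. The genes lie at chr7:25687002-25705077 (Tgfb1), chr1:186622792-186705989 (Tgfb2) and chr12:86056745-86079041 (Tgfb3), in coordinates that match GENCODE M21 on GRCm38. The receptors lie at chr4:47353222-47414931 (Tgfbr1), chr9:116084293-116175360 (Tgfbr2) and chr5:107106570-107289629 (Tgfbr3), and Smad3 lies at chr9:63646767-63757994. Tgfb3 shares 257 exon bases with Gm48008 on the opposite strand, which had 122 reads over all 12 tumors beside 97036 for Tgfb3. Tgfb2 shares 124 exon bases with the antisense gene Gm29491, which had 110 reads beside 9650. As the strand setting of the counting is not given in the sources used here, reads of these overlaps cannot be assigned to a strand.

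Counted reads per tumor ran from 16583413 to 25925027 (median 19342536), so that 3 reads, taken as the floor of detection, equalled 0.111 to 0.184 normalized CPM. CPM is a gene's reads per 1000000 reads of its library, and for normalized CPM each library total was first scaled by the trimmed mean of M-values. The tissue label was checked against 8 luminal epithelial markers, which summed to 3064 to 6362 CPM, with Epcam at 1353 to 2533 CPM and Krt8 at 485 to 1225 CPM. Krt19 was the exception, with 0 reads in control replicate 4 and MSU-42011 replicate 3, 28.2 CPM in bexarotene replicate 1 and at most 1.96 CPM in the other tumors. The tumor labelled bexarotene replicate 1 stood apart. Its median correlation with the other tumors was 0.915 against at least 0.961 for the rest. Its 12 fibroblast markers summed to 12081 CPM against 112 to 998 CPM in the other 11 tumors. Its luminal markers had the lowest sum, 3064 CPM. Its adipocyte markers summed to 87.3 CPM against at most 33.5 CPM elsewhere. Its skeletal muscle markers summed to 266 CPM, against 147 CPM in control replicate 1 and at most 3.98 CPM in the rest. Its T cell markers (7.75 CPM) were within the range of the other tumors. Many results that include bexarotene replicate 1 are therefore given with and without it, and the others with all tumors only. Tumors are the replicates, and in bulk tissue fewer cells of a type and less RNA per cell cannot be told apart.

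All 10 genes were among the 15504 that passed the filter on low counts, and all 10 were above the floor in every tumor. Compared per transcript length, by the authors' FPKM in control tumors, Tgfb3 stood first at 175 ± 117 (SD, n = 4) and Tgfbr3 last at 6.40 ± 1.57. Between them came Smad3 at 58.9 ± 9.82, Tgfbr2 at 46.8 ± 9.90, Tgfb1 at 42.6 ± 6.47 and Smad4 at 41.4 ± 3.96 FPKM. Lower in the order were Tgfb2 at 23.6 ± 5.28, Tgfbr1 at 20.8 ± 5.41, Smad7 at 18.9 ± 2.46 and Smad2 at 12.3 ± 1.88 FPKM. Tgfb3 was above Smad3 in all control tumors without overlap, and the steps from Smad4 to Tgfb2, from Smad7 to Smad2 and from Smad2 to Tgfbr3 did not overlap either, whereas each other pair of neighbours overlapped. In tumors treated with MSU-42011 Tgfb3 again stood above Smad3 without overlap, at 100.5 ± 19.9 against 63.9 ± 1.64 FPKM. In bexarotene-treated tumors Tgfb3 was 74.2 ± 18.3 and Smad3 62.5 ± 14.0 FPKM, and the tumors overlapped. These orders depend on the length used by the authors for FPKM, which equalled the listed gene length for Tgfb3 (3383 bases) and was shorter by up to 4.08 times, for Tgfb1, in the other 9 genes.

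**Figure D1:**
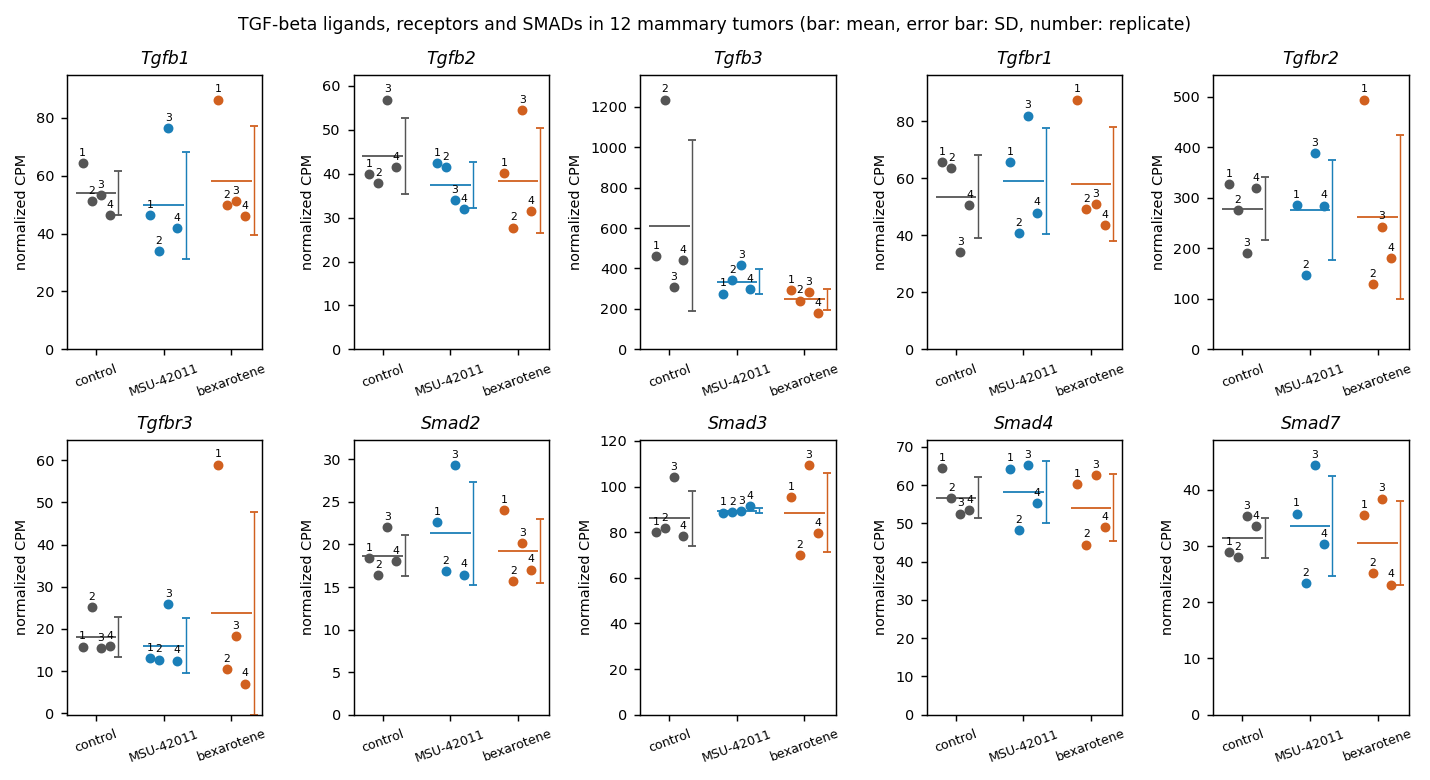
Normalized CPM (vertical axes, from 0 or just below where an error bar reaches under it) of each of the 10 genes in the 12 tumors, by diet group; points are tumors with their replicate number, horizontal lines are means and error bars are SDs. Tgfb3 was lower in all 4 bexarotene-treated tumors (178 to 293 CPM) than in all 4 control tumors (309 to 1235 CPM), while the groups of the other 9 genes overlapped.

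Tgfb3, the ligand with the highest level, had the largest difference from control of the 10 genes under each treatment with all 12 tumors. In control tumors it measured 461, 1235, 309 and 441 CPM. In tumors treated with MSU-42011 it measured 276, 344, 416 and 298 CPM, and in bexarotene-treated tumors 293, 241, 281 and 178 CPM. Every bexarotene-treated tumor was thus below every control tumor, and the 1235 CPM of control replicate 2 was far above the other control values. Across all genes tested, 0.89% did not overlap and were lower in bexarotene-treated tumors.

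For bexarotene against control, the level of Tgfb3 was lower by a log2 fold change of -1.30 (SE 0.36, 95% confidence interval -2.09 to -0.51), or 0.406 of the control level. The unadjusted p of edgeR's quasi-likelihood test was 0.00364, the 23rd smallest of 15504 genes; after Benjamini-Hochberg adjustment over all genes it was 0.762, so that the difference did not pass the threshold. The exact two-sided permutation test gave p = 0.0286, the smallest that 4 against 4 tumors allow. By DESeq2 the adjusted p was 0.112. Leaving out control replicate 2 gave -0.71, still with an unadjusted edgeR p of 0.00586, and leaving out bexarotene replicate 1 gave -1.39, with an unadjusted edgeR p of 0.0046. With both tumors left out it was -0.79.

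For MSU-42011 against control, the log2 fold change of Tgfb3 was -0.87 (SE 0.36, 95% confidence interval -1.66 to -0.093), with an unadjusted edgeR p of 0.0312 and an adjusted p of 1.00. The groups overlapped, and the exact permutation test gave p = 0.114. This value rested on control replicate 2, without which it was -0.28. Between the compounds, at the same dose and time, the log2 fold change of MSU-42011 against bexarotene was 0.43 with a 95% confidence interval of -0.35 to 1.20, so that neither equal levels nor a 2.30-fold higher level under MSU-42011 lay outside the interval. The edgeR unadjusted p of this difference was 0.257 and the exact permutation p was 0.0857. These comparisons share tumors and are not independent of each other.

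Tgfb3 was the only 1 of the 10 genes with an unadjusted p under 0.05 against control, in both treatments. Among all genes tested, 1.96% were lower with such a p under bexarotene and 0.851% under MSU-42011. At an adjusted p under 0.05, edgeR called 0% of the 15504 genes in each comparison. With no adjustment, 998 genes had a p under 0.05 when bexarotene was compared with control, 309 when MSU-42011 was, and 612 when the compounds were compared with each other. DESeq2 called 6 (0.0356%), 1 (0.00338%) and 25 genes (0.153%) in the same order, with none of the 10 among them. A test for any difference among the 3 groups ranked Tgfb3 at 134 (edgeR unadjusted p 0.00895), where 4.24% of genes had a p under 0.05, and the other 9 genes had an unadjusted p of at least 0.495.

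**Figure D2:**
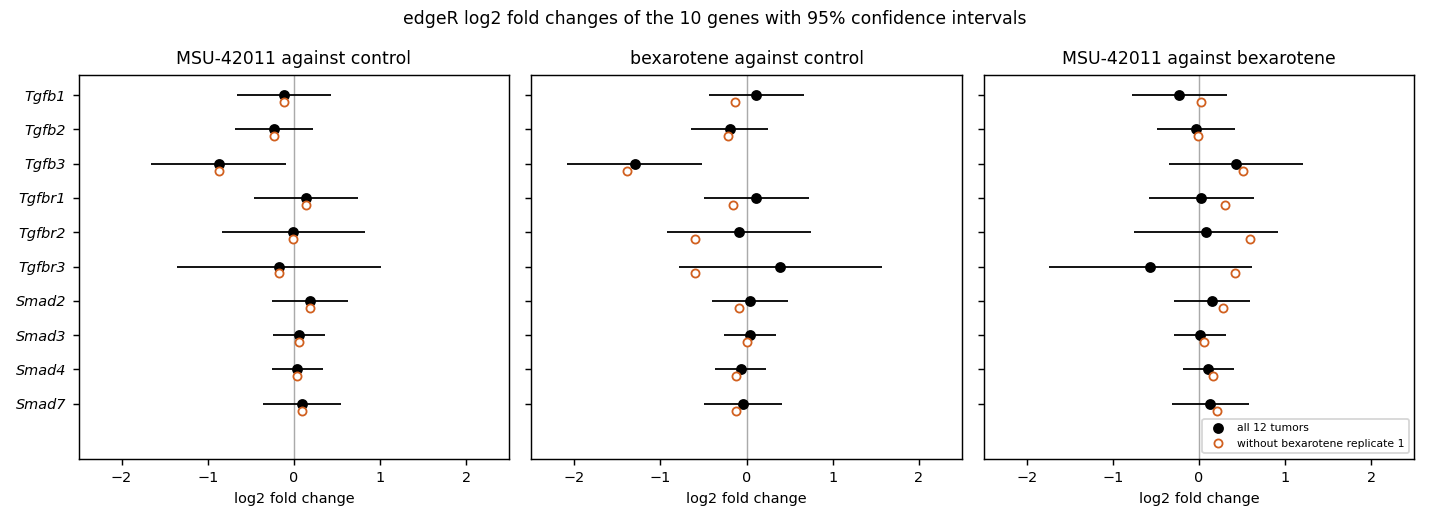
Log2 fold changes of the 10 genes in the 3 comparisons from edgeR (horizontal axes), as filled points with 95% confidence intervals for all 12 tumors and as open points without bexarotene replicate 1. The intervals of Tgfb3 against control lie below 0 for both treatments; the 2 other ligands, the receptors and the SMAD genes have intervals across 0, and the open points of Tgfbr2 and Tgfbr3 lie at -0.59 and -0.60 for bexarotene against control.

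The other ligands differed less. Tgfb1, which encodes the most widely expressed ligand of the family, measured 64.4, 51.3, 53.3 and 46.5 CPM in control tumors and 46.5, 34.1, 76.4 and 42.0 CPM under MSU-42011. In bexarotene-treated tumors it measured 86.3 CPM in replicate 1 and 49.8, 51.1 and 45.9 CPM in the others. The log2 fold change was -0.12 (SE 0.25) for MSU-42011 against control and 0.11 (SE 0.25) for bexarotene against control, the latter -0.14 without bexarotene replicate 1. Tgfb2, which encodes the ligand that depends most on betaglycan, ran from 37.9 to 56.9 CPM in control tumors, 32.0 to 42.5 CPM under MSU-42011 and 27.7 to 54.5 CPM under bexarotene. Its log2 fold change was -0.23 (SE 0.21) and -0.20 (SE 0.21), with overlapping groups in both comparisons.

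The balance among the ligands was followed as each ligand's share of the summed FPKM of all 3. Tgfb3 made up 64.8%, 85.4%, 55.1% and 68.4% in control tumors, 57.3%, 66.9%, 60.5% and 63.2% under MSU-42011, and 48.5%, 56.2%, 53.9% and 49.2% under bexarotene. The means were 68.4 ± 12.6%, 62.0 ± 4.07% and 52.0 ± 3.70% (SD, n = 4 each). The share was thus lowest under bexarotene, and its tumors did not overlap those given MSU-42011. The exact permutation test of that difference gave p = 0.0286, and the difference between bexarotene and control was -16.5 percentage points (exact permutation p = 0.0571). Tgfb1 made up 20.1 ± 7.44% in control tumors, 24.8 ± 5.11% under MSU-42011 and 33.1 ± 5.20% under bexarotene (n = 4 each). It was 13.1 points higher under bexarotene than in control tumors (exact permutation p = 0.0286) and differed by -8.32 points between MSU-42011 and bexarotene (exact permutation p = 0.0571). Among 24 such tests of shares and ratios the smallest adjusted p of the exact permutation tests was 0.343.

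A ratio of reads needs no gene length. Tgfb3 had 7.15, 24.1, 5.78 and 9.49 reads per Tgfb1 read in control tumors, 5.94, 10.1, 5.44 and 7.11 under MSU-42011, and 3.39, 4.83, 5.51 and 3.88 under bexarotene. Each bexarotene-treated tumor was below each control tumor, but the highest of them (5.51) was above the lowest under MSU-42011 (5.44). With the listed gene lengths in place of the authors' lengths the mean share of Tgfb3 was 88.4%, 85.7% and 80.1% in the control, MSU-42011 and bexarotene groups. The share itself depends on the length, while the order of the 3 group means did not.

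**Figure D3:**
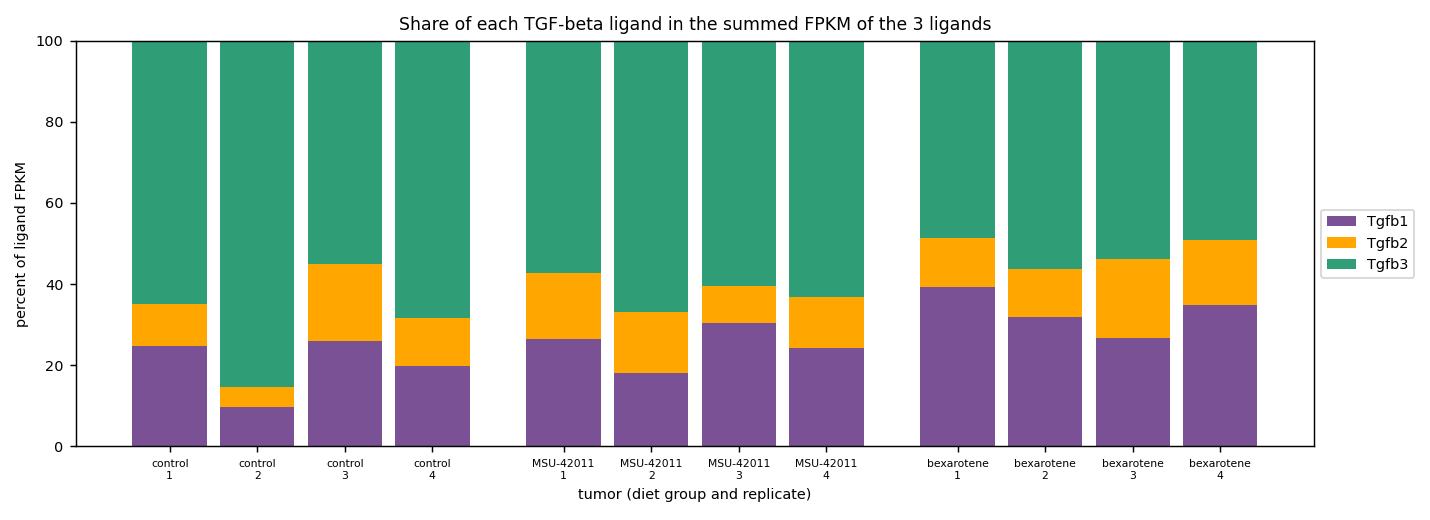
Share of Tgfb1, Tgfb2 and Tgfb3 in their summed FPKM (vertical axis, percent) for each of the 12 tumors, in blocks by diet group. The Tgfb3 segment takes 48.5% to 56.2% in bexarotene-treated tumors, 57.3% to 66.9% under MSU-42011 and 55.1% to 85.4% in control tumors, with control replicate 2 highest.

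The receptor genes did not differ between groups beyond the spread of the tumors. Tgfbr2, the type II receptor gene, measured 327, 276, 191 and 319 CPM in control tumors and 287, 148, 389 and 285 CPM under MSU-42011. In bexarotene-treated tumors it measured 495, 129, 243 and 181 CPM, so that the highest and the lowest of all 12 tumors were both in this group. Its log2 fold change was -0.0066 (95% confidence interval -0.84 to 0.83) for MSU-42011 and -0.086 (95% confidence interval -0.92 to 0.75) for bexarotene against control. Without bexarotene replicate 1 the latter was -0.59, with an unadjusted edgeR p of 0.0756.

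Tgfbr1, the type I receptor gene, ran from 34.1 to 65.7 CPM in control tumors, 40.7 to 81.9 CPM under MSU-42011 and 43.7 to 87.6 CPM under bexarotene, again with replicate 1 highest. Against control its log2 fold change was 0.14 (SE 0.28) and 0.11 (SE 0.28), the latter -0.16 without that tumor. Tgfbr3, the betaglycan gene, had the lowest level of the 10 per length. Its coefficient of variation over the 12 tumors was 70.7%, and 36.6% without bexarotene replicate 1, beside 69.5% and 70.7% for Tgfb3. It measured 15.8, 25.2, 15.4 and 15.9 CPM in control tumors, 13.0, 12.7, 25.9 and 12.5 CPM under MSU-42011 and 58.9, 10.5, 18.3 and 7.05 CPM under bexarotene. For bexarotene against control its log2 fold change was 0.39 (SE 0.54), and it was -0.60 without replicate 1, with an unadjusted edgeR p of 0.113. The tumor with 58.9 CPM therefore set the sign of this value. The ratio of Tgfbr2 to Tgfbr1 FPKM was 2.30 ± 0.364 in control tumors, 2.03 ± 0.419 under MSU-42011 and 1.86 ± 0.553 under bexarotene (n = 4 each), with an exact permutation p of at least 0.229 in each comparison.

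The SMAD genes varied least, with coefficients of variation over the 12 tumors of 12.5% for Smad4, 12.7% for Smad3, 20.3% for Smad7 and 20.7% for Smad2, against 21.8% to 70.7% for the ligands and receptors. Smad4, the common partner, measured 64.3, 56.5, 52.5 and 53.4 CPM in control tumors, 64.3, 48.2, 65.3 and 55.2 CPM under MSU-42011 and 60.3, 44.4, 62.6 and 49.0 CPM under bexarotene. Its highest value was 1.47 times its lowest over all 12 tumors, and the 3 groups overlapped. Its log2 fold change was 0.039 (95% confidence interval -0.26 to 0.34) for MSU-42011 and -0.067 (95% confidence interval -0.37 to 0.23) for bexarotene against control, and 0.11 (95% confidence interval -0.19 to 0.40) between MSU-42011 and bexarotene. Such a transcript level says nothing of the SMAD4 protein, its location or its activity, which were not measured.

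Smad3, a receptor-activated SMAD gene, ran from 78.2 to 104 CPM in control tumors, 88.5 to 91.4 CPM under MSU-42011 and 69.9 to 110 CPM under bexarotene. The 4 tumors given MSU-42011 had a coefficient of variation of 1.46%, against 14.1% and 19.7% in the other groups. The log2 fold change of Smad3 was 0.057 (SE 0.14) and 0.042 (SE 0.14). Smad2, the other receptor-activated SMAD gene, ran from 16.4 to 22.0, 16.5 to 29.4 and 15.7 to 24.1 CPM in the control, MSU-42011 and bexarotene groups. Its log2 fold change was 0.19 (SE 0.20) and 0.042 (SE 0.20), the latter -0.085 without bexarotene replicate 1. The ratio of Smad3 to Smad2 FPKM was 4.80 ± 0.334, 4.64 ± 1.23 and 4.83 ± 0.642 in these groups (n = 4 each). Smad2, Smad4 and Smad7 lie on chromosome 18, and the Smad2 gene of the files ended 5232 bases before that of GENCODE M21, and reads of that end were not counted. Smad7, the inhibitory SMAD gene, ran from 28.0 to 35.3, 23.4 to 44.4 and 23.1 to 38.4 CPM in the same order, with a log2 fold change of 0.091 (SE 0.21) and -0.040 (SE 0.21).

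Comparing the 2 compounds, 0 of the 10 genes had an unadjusted edgeR p under 0.05, against 3.13% of all genes lower and 0.819% higher under MSU-42011. Apart from Tgfb3, log2 fold changes of the 10 genes ran from -0.57 (Tgfbr3) to 0.15 (Smad2), and from -0.017 to 0.59 (Tgfbr2) without bexarotene replicate 1. The widest confidence interval, for Tgfbr3, reached from -1.75 to 0.61, and the narrow ones of Smad3 and Smad4 stayed within -0.29 to 0.40. For the receptors these data therefore do not show that the compounds act alike.

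The 10 genes did not vary together as 1 set. Among their 45 pairs, the Spearman rank correlation over the 12 tumors lay between -0.049 and 0.818 (median 0.531). The receptor genes Tgfbr1 and Tgfbr2 ranked the 12 tumors most alike (0.818, and 0.764 without bexarotene replicate 1, where Tgfbr2 and Smad4 were the highest pair at 0.873). Smad4 followed both of them, with 0.811 for Tgfbr1 and 0.804 for Tgfbr2, and Smad2 and Smad7 reached 0.804. With all 12 tumors, Tgfb2 and Tgfb3 had the lowest median over their pairs. The 9 pairs of Tgfb2 ran from -0.049, with Tgfbr1, to 0.531, with Smad3 (median 0.217), and those of Tgfb3 from -0.021, with Smad3, to 0.538, with Tgfbr3 (median 0.231). Without bexarotene replicate 1 the value of Tgfb3 was 0.718 with Tgfbr3 and 0.555 with Tgfbr2, and its median was 0.382, above the 0.318 of Smad3. These correlations describe the same 12 libraries, which share depth, scaling and cell makeup.

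Among 13877 genes with a mean of at least 1 CPM, those that ranked the tumors most like Tgfb3 were Pdzrn3 and Tlr12, both with a rank correlation of 0.902, and Cdhr1 with 0.895 (12 tumors). Pdzrn3 measured 143, 213, 131 and 145 CPM in control tumors and 107, 81.1, 130 and 107 CPM under bexarotene, so that it shared with Tgfb3 the peak in control replicate 2. For Tgfbr1 the closest gene was Mef2a (0.993), which encodes a transcription factor, followed by the cholesterol exporter gene Abca1 (0.972). For Tgfbr2 it was Calu (0.965), and for Tgfbr3 it was Ctsc (0.972), the cathepsin C gene. For Smad7 it was Ski (0.979), which encodes a corepressor of SMAD complexes. For Smad4 they were Osbpl9 (0.979), Trip12 (0.972) and Spin1 (0.965), and for Smad3, Smad2, Tgfb1 and Tgfb2 they were Tango6 (0.951), Eloa (0.944), Kctd11 (0.951) and Slc25a12 (0.902).

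As Tgfbr1 and Tgfbr2 ranked the 12 tumors most alike, the 250 bases before the first listed start of each are shown. These bases come from RefSeq's table for GRCm38.p6, to let the promoters be read side by side. They lie at chr4:47352972-47353221 on the plus strand and chr9:116175364-116175613 on the minus strand. Capitals mark matches on either strand of the GC box GGGCGG and of the SMAD box CAGAC.
Tgfbr1: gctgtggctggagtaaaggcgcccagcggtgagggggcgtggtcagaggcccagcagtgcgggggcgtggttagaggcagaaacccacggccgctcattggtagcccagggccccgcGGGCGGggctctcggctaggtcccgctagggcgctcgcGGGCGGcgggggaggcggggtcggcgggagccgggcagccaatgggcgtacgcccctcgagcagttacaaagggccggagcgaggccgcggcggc
Tgfbr2: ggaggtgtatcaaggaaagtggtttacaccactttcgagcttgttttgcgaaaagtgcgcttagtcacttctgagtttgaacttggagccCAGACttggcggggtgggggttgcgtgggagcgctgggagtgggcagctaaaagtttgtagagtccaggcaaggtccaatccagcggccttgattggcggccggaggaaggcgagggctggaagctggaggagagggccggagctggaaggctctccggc
The Tgfbr1 window shown held 2 GC boxes and no SMAD box, and 74.8% of its bases were G or C. The Tgfbr2 window held 1 SMAD box and no GC box, with 58.4% G or C. A second Tgfbr1 window, at chr4:47385966-47386215 and not shown, also held 1 SMAD box and no GC box, with 52.8% G or C. The contrast between the 2 genes thus depends on the Tgfbr1 window taken. Among 32851 promoter windows of this length, 32.7% held a GC box and 42.2% a SMAD box on either strand. The half-site AGGTCA, of the kind bound by nuclear receptors, occurs in 14.0% of windows and in none of the 6 windows found for 5 of the 10 genes (Tgfb1, Tgfb2, Tgfbr1, Tgfbr2 and Smad3). A match is a string of letters and not a bound site, and a window without one says nothing of the factor.

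The other genes of the pathway were taken from lists of latency and activation factors, receptor partners, SMAD partners, the activin arm, the bone morphogenetic protein (BMP) arm and TGF-beta response genes. Of 120 listed genes 102 passed the filter, and 0 were called at an adjusted edgeR p under 0.05 in any comparison. For MSU-42011 against control, 1 was higher at an unadjusted p under 0.05 (1.14% of all genes) and 1 was lower (0.851% of all genes). The median log2 fold change was 0.029 against 0.0016 over all genes. The higher one was Ep300, a histone acetyltransferase gene whose product joins SMAD complexes, with 67.3 ± 5.32 CPM in control tumors and 80.9 ± 11.5 CPM under MSU-42011 (n = 4 each). The lower one was Lrg1, which encodes a secreted modulator of TGF-beta receptor signaling. It measured 39.1, 220, 22.8 and 7.84 CPM in control tumors and 3.85, 14.5, 12.1 and 9.18 CPM under MSU-42011, so that control replicate 2 again held the peak.

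For bexarotene against control, 26 of the 102 genes were higher at an unadjusted edgeR p under 0.05 and 0 lower, where 4.48% of all genes were higher. Without bexarotene replicate 1 there were 2 genes with such a p in either direction, where 1.6% of all genes were higher and 1.75% lower. The median log2 fold change moved from 0.16 to -0.018, against 0.030 and 0.0063 over all genes. The response genes, matrix genes among them that TGF-beta is known to induce, held most of these. Of 32 tested, Smad7 included, 15 had an unadjusted edgeR p under 0.05 with all tumors and 0 without that tumor, and the median moved from 1.15 to 0.094. Fn1, which encodes fibronectin, measured 48.0, 7.10, 19.5 and 22.6 CPM in control tumors and 1518, 156, 25.2 and 9.63 CPM under bexarotene. Replicates 1 and 2 of the bexarotene group were above every control tumor, and replicates 3 and 4 were within the control range.

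The 21 listed latency factors summed to 5879 CPM in bexarotene replicate 1. In bexarotene replicate 2 they summed to 3235 CPM, below the 3352 to 4161 CPM of control tumors. Of 19 tested, 5 had an unadjusted edgeR p under 0.05 and were higher under bexarotene, where 4.48% of all genes were higher. Without replicate 1 there were 0, where 1.6% of all genes were higher and 1.75% lower. Fbn1, Ltbp4 and Mmp2, with the smallest p of the list, were above every control tumor in bexarotene replicates 1 and 2. Fbn1, the fibrillin gene whose product anchors latent complexes, measured 512, 29.0, 10.5 and 4.54 CPM under bexarotene and 3.88 to 18.0 CPM in control tumors. Ltbp4, which encodes a latent TGF-beta binding protein, measured 148, 37.5, 19.2 and 21.3 CPM under bexarotene and 15.9 to 24.3 CPM in control tumors. Mmp2, a matrix protease gene, measured 350, 34.4, 13.8 and 8.28 CPM under bexarotene and 6.01 to 14.5 CPM in control tumors.

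The integrin gene Itgb3, whose product can bind latent TGF-beta, did not follow the pattern of Fbn1, Ltbp4 and Mmp2. It measured 150, 119, 153 and 133 CPM in control tumors and 94.8, 107, 112 and 96.6 CPM under MSU-42011, without overlap, as did 0.806% of all genes in this direction. The log2 fold change of Itgb3 was -0.44 (SE 0.24, 95% confidence interval -0.96 to 0.090), with an unadjusted edgeR p of 0.0964. Bexarotene-treated tumors ran from 66.3 to 182 CPM.

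Of 14 tested genes listed for the BMP arm, 3 had an unadjusted edgeR p under 0.05 and were higher under bexarotene. Across all genes tested, 4.48% were higher with such a p. Gdf15, a stress-induced cytokine gene, was 1 of the 3. Gdf15 measured 0.428 to 0.890 CPM in control tumors and 1.59, 1.72, 0.823 and 1.29 CPM under bexarotene. Its groups overlapped, with an exact permutation p of 0.0571. Without replicate 1 its unadjusted edgeR p was 0.0414, where 1.6% of all genes were higher with a p under 0.05. Chrd, which encodes the BMP antagonist chordin, measured 0.259 to 0.534 CPM in control tumors and 8.97, 1.48, 0.872 and 0.368 CPM under bexarotene. Id3, a target gene of BMP signaling, measured 5.24 to 8.90 CPM in control tumors and 46.4, 13.3, 6.64 and 7.91 CPM under bexarotene. Without replicate 1 the unadjusted edgeR p was 0.0972 for Chrd and 0.145 for Id3. Inhba, which encodes an activin subunit, was the only 1 of 7 activin genes with an unadjusted edgeR p under 0.05 for bexarotene against control. It measured 0.473 to 0.771 CPM in control tumors, 10.8 CPM in bexarotene replicate 1 and 0.145 to 1.57 CPM in the other bexarotene-treated tumors. Its log2 fold change was 2.47, and 0.36 without replicate 1. Under MSU-42011 Inhba measured 1.87, 0.303, 4.82 and 1.30 CPM. Its unadjusted edgeR p against control was 0.120, and 0.0353 without bexarotene replicate 1. Among 18 SMAD partners the only 2 with an unadjusted edgeR p under 0.05 for bexarotene against control were Zeb1 and Zeb2, genes of repressors of epithelial genes. Their log2 fold change was 1.44 and 1.60, and it was 0.14 and -0.040 without replicate 1. Of 19 receptor partners 0 had such a p with all tumors, and 1 (Lrg1) had it without replicate 1, where 1.75% of all genes were lower. Its log2 fold change was -1.64 with all tumors (edgeR unadjusted p 0.120). Without replicate 1 it was -2.86 (edgeR unadjusted p 0.0132). Lrg1 measured 62.8, 17.6, 3.63 and 8.52 CPM under bexarotene, against 39.1, 220, 22.8 and 7.84 CPM in control tumors.

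**Figure D4:**
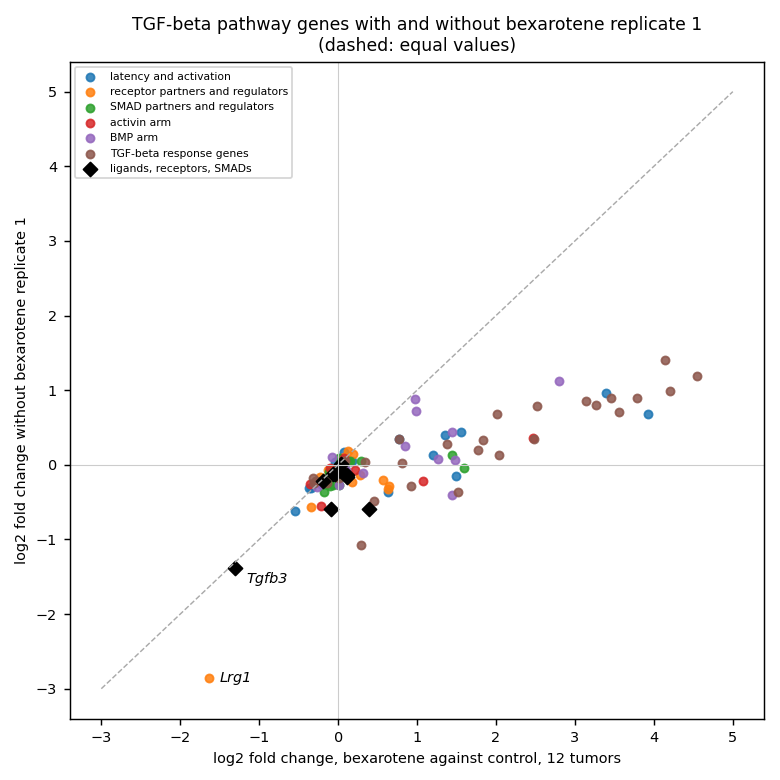
Log2 fold change of TGF-beta pathway genes for bexarotene against control with all 12 tumors (horizontal axis) and without bexarotene replicate 1 (vertical axis); points are genes, colored by list, diamonds are the 10 core genes, and the dashed line marks equal values. Tgfb3 lies near the line at -1.30 and -1.39, while response genes reach 4.55 on the horizontal axis and no more than 1.40 on the vertical one.

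For MSU-42011 against bexarotene, 18 of the 102 pathway genes had an unadjusted edgeR p under 0.05 and lower levels, and 0 had higher levels. Without bexarotene replicate 1 there was 1 such gene in either direction, where 1.59% of all genes were higher and 1.47% lower. The median moved from -0.19 to 0.042, against -0.024 and -9.7e-05 over all genes.

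Cell marker lists did not all move the same way for bexarotene against control. With all tumors, median log2 fold changes were 3.67 for fibroblast, 0.83 for macrophage and 0.72 for endothelial markers. They were 0.95 for platelet, 0.65 for skeletal muscle and 0.56 for adipocyte markers. They were -0.18 for luminal, -0.36 for T cell and -1.02 for myoepithelial markers. The 12 fibroblast markers, 4 of which are also response genes, summed to 112 to 513 CPM in control tumors, 192 to 542 CPM under MSU-42011 and 171 to 12081 CPM under bexarotene (998 CPM in replicate 2). Of the 12, 9 had an unadjusted edgeR p under 0.05 and were higher under bexarotene than in control tumors, where 4.48% of all genes were higher. Without bexarotene replicate 1 the number was 1 (Fbln1, edgeR unadjusted p 0.0494), and the median log2 fold change moved from 3.67 to 0.90. At 0 reads were Dcn in control replicate 2, Lum in MSU-42011 replicates 1 and 3 and Pi16 in MSU-42011 replicate 1, and, of the macrophage markers, Cd163 in MSU-42011 replicate 3 and bexarotene replicate 4. The 8 endothelial markers summed to 89.9 to 171, 115 to 231 and 136 to 478 CPM in the 3 groups. The 10 macrophage markers summed to 205 to 709, 234 to 596 and 262 to 1671 CPM. Bexarotene replicate 1 was highest in both. Without it the bexarotene sums were 136 to 149 and 262 to 406 CPM, within the control ranges. In each of these lists 1 gene was higher under bexarotene than in control tumors at an unadjusted edgeR p under 0.05 with all tumors. The part of these cells in the pathway levels was not tested.

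The core genes ranked the tumors like these markers to different degrees. The rank correlation with the macrophage sum was 0.832 for Tgfbr1, 0.685 for Tgfbr3, 0.650 for Tgfb1 and 0.545 for Tgfbr2, and with the endothelial sum it was 0.720, 0.413, 0.503 and 0.762 in that order (12 tumors). Without bexarotene replicate 1 the macrophage values were 0.782, 0.591, 0.545 and 0.409, and the endothelial ones 0.636, 0.236, 0.355 and 0.691 (11 tumors). Smad2 reached 0.685 and Smad4 0.580 with the endothelial sum. Tgfb3 reached 0.385 with the macrophage sum and 0.564 without bexarotene replicate 1. With the fibroblast, endothelial and luminal sums Tgfb3 had -0.091, -0.070 and 0.287, and without that tumor -0.036, 0.0091 and 0.318. For bexarotene against control the log2 fold change of Tgfb3 was -1.30 with all tumors and -1.39 without bexarotene replicate 1. The part of cell makeup in this difference was not tested. In control replicate 2, which had the highest Tgfb3 level, the luminal sum (6362 CPM) was the highest of all tumors, next to 6171 CPM in control replicate 1. Its fibroblast sum (112 CPM) and endothelial sum (89.9 CPM) were the lowest of all tumors. Its macrophage sum (709 CPM) was below only that of bexarotene replicate 1 (1671 CPM).

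**Figure D5:**
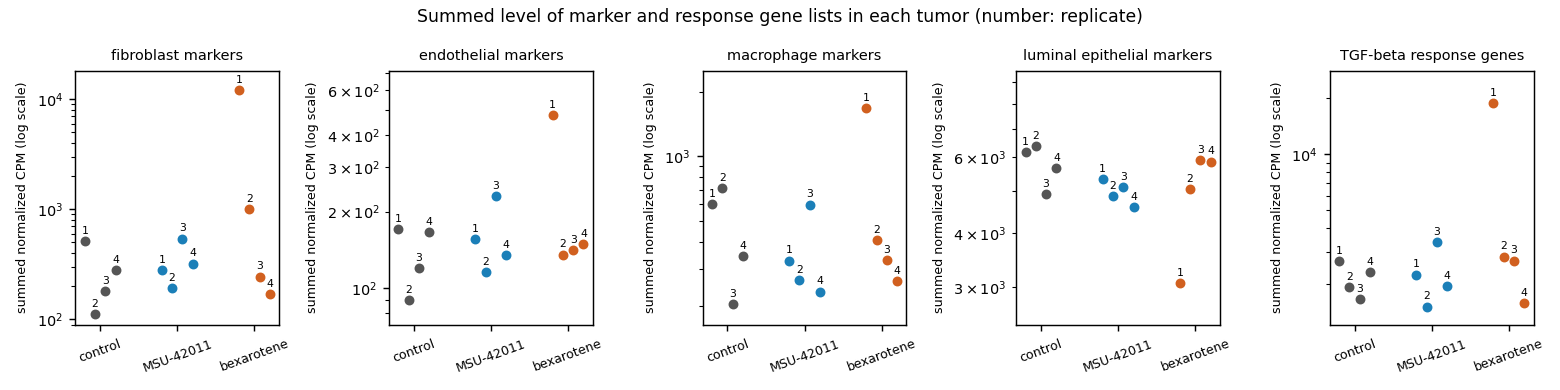
Summed normalized CPM (vertical axes, log scale) of fibroblast, endothelial, macrophage and luminal epithelial markers and of TGF-beta response genes in each tumor, by diet group, with replicate numbers at the points. Bexarotene replicate 1 is highest for fibroblast markers (12081 CPM) and response genes (18749 CPM) and lowest for luminal markers (3064 CPM).

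The extremes of the core genes fell on few tumors. Bexarotene replicate 1 held the highest level of 4 of the 10 genes (Tgfb1 and all 3 receptors), as it did for 19.1% of all genes tested. MSU-42011 replicate 3 held the highest level of Smad2, Smad4 and Smad7, as it did for 10.5% of all genes. Bexarotene replicate 2 held the lowest level of 5 genes (Tgfb2, Tgfbr2, Smad2, Smad3 and Smad4), as it did for 12.9% of all genes.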

How the data were processed

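Poly(A) RNA of 12 mammary tumors was sequenced by a commercial provider. The authors deposited whole-number read counts per gene, not normalized, and FPKM values, in which a count is scaled to its library total and to a gene length set by the authors. Per the labels' processing notes, STAR 2.6.1d and featureCounts 1.5.0-p3 were used, with DESeq2; the genome build and strand setting are not given in the sources used here. Coordinates of 53548 of 54532 genes (98.2%), and of 9 of the 10 core genes, matched GENCODE M21 on GRCm38.

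Groups came from the sample labels. Counts were tested with edgeR 4.0.16 (R 4.3.3), using trimmed-mean scaling, the default expression filter, 1 fit with 3 group means, the quasi-likelihood test and Benjamini-Hochberg adjustment over 15504 genes at 0.05. Shares of FPKM were compared by exact two-sided permutation tests. Alternatives used DESeq2 1.42.0 and limma 3.58.1 (log2(FPKM + 1), or + 0.1), other scalings and filters, a replicate block, and each tumor left out. The study's own tool was DESeq2; edgeR was used first because the values are counts. Library totals ran from 16583413 to 25925027 reads, and intervals and floors cover counting error only where stated. The scripts were tested on simulated data.

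The members and gene lists were chosen with earlier results of these data known. Named genes were the 10 members, every called gene of a list and up to 3 genes per list and comparison with the smallest unadjusted p, and 3 genes per member with the highest rank correlation; 1 gene that this rule names is not reported here. Tumors were tested as unpaired, with the replicate block as an alternative. Correlations of deviations between tumors with the same number ran from -0.35 to 0.35, which cannot show whether the numbers pair tumors. Labels do not tie tumors to cages or days, so p-values measure only the spread between these tumors. The tests given first hold all 12 tumors, and no tumor repeated another.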

Additional observations from a re-analysis of the deposited data

Results flagged for a closer look

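In 33 sets of 4 tumors (10 genes and the Tgfb1 share in each of 3 diet groups), the highest and lowest values were tested for a tumor far from the other 3 by its gap over the range (Dixon's test), and 6 were past it, where chance gives about 5%. Tgfb3 in control replicate 2 was 1235 CPM against 309 to 461 CPM in the other control tumors. Tgfb1 in bexarotene replicate 1 was 86.3 CPM against 45.9 to 51.1 CPM, and Tgfbr1 in the same tumor was 87.6 CPM against 43.7 to 51.0 CPM. Tgfbr3 in control replicate 2 was 25.2 CPM against 15.4 to 15.9 CPM, and in MSU-42011 replicate 3 it was 25.9 CPM against 12.5 to 13.0 CPM. Smad3 in control replicate 3 was 104 CPM against 78.2 to 81.9 CPM.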

How the results depend on the processing

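The log2 fold changes of the 10 genes in 3 comparisons (30 values) were recomputed under 690 alternatives, of which 0 gave an adjusted p under 0.05 and 57 turned the sign, 41 of them with 1 tumor left out. Tgfb3 kept its sign in all of them, against control and between compounds: with 1 tumor left out it ran from -1.52 to -0.71 for bexarotene and from -1.09 to -0.28 for MSU-42011 against control. None of the sign changes concerned a value with a p under 0.05. With 1 tumor left out, values for MSU-42011 against control ran from -0.40 to 0.028 for Tgfb1, -0.060 to 0.28 for Tgfbr1, -0.22 to 0.20 for Tgfbr2, -0.50 to 0.026 for Tgfbr3, -0.0041 to 0.295 for Smad2, -0.020 to 0.12 for Smad4 and -0.075 to 0.23 for Smad7. Those for bexarotene against control ran from -0.14 to 0.21 for Tgfb1, -0.16 to 0.22 for Tgfbr1, -0.59 to 0.14 for Tgfbr2, -0.60 to 0.69 for Tgfbr3, -0.085 to 0.13 for Smad2, -0.077 to 0.15 for Smad3, -0.15 to 0.016 for Smad4 and -0.17 to 0.067 for Smad7. Those for MSU-42011 against bexarotene ran from -0.51 to 0.022 for Tgfb1, -0.17 to 0.18 for Tgfb2, -0.17 to 0.30 for Tgfbr1, -0.14 to 0.59 for Tgfbr2, -0.89 to 0.42 for Tgfbr3, -0.044 to 0.27 for Smad2, -0.083 to 0.13 for Smad3 and -0.033 to 0.27 for Smad7. The cause was not tested.

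With both bexarotene replicate 1 and control replicate 2 left out, an alternative chosen after seeing the data, the value for bexarotene against control was -0.16 for Tgfb1, -0.063 for Tgfbr1, -0.39 for Tgfbr3, -0.14 for Smad2 and -0.017 for Smad3, that for MSU-42011 against control was 0.029 for Tgfbr3, and those for MSU-42011 against bexarotene were 0.022 for Tgfb1 and 0.42 for Tgfbr3. By limma on FPKM, Tgfbr2 was 0.0059 (pseudocount 1, with or without a filter) and 0.0045 (pseudocount 0.1) for MSU-42011 against control, Tgfb2 was 0.021 and 0.023 for MSU-42011 against bexarotene, and Tgfbr3 was -0.025 (pseudocount 0.1) for bexarotene against control.

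The number of genes called by edgeR was 0 in each comparison. By DESeq2 it was 1 (MSU-42011 against control), 6 (bexarotene against control), 25 (between the compounds) and 5 (any difference), and without its Cook's distance filter 7, 7, 42 and 5. With edgeR and without MSU-42011 replicate 2 it was 1 for bexarotene against control and 1 for any difference, and with each other tumor left out it was 0 to 0.

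With the replicate number as a block, 0 genes were called, the log2 fold change of Tgfb3 was -1.17 for bexarotene against control (edgeR unadjusted p 0.00738) and -0.74 for MSU-42011 against control (edgeR unadjusted p 0.0566), and that of Tgfb2 was 0.012 for MSU-42011 against bexarotene. For bexarotene against control the Tgfb1 share differed by 13.1 points under the block, with an exact p of 0.125, the smallest that 4 pairs allow. With 1 tumor left out that difference ran from 9.59 to 15.2 points. Its exact permutation p was 0.0571 in 6 of 8 such sets and under 0.05 in the others. The block changed no other call.

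Each group holds 4 tumors, and every core gene was above the floor of 3 reads in each of them; the part of depth in the errors was not measured. The library of bexarotene replicate 1 and that of control replicate 2 decide several values, and what sets them apart was not tested. FPKM shares depend on the gene lengths used. Transcript levels give neither latent nor active protein.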

Other observations

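Further pathway genes named by the same rule had small differences between groups. Inhbb, which encodes an activin subunit, measured 698 CPM in control replicate 2, against 284 to 348 CPM in the other control tumors, 230 to 380 CPM under MSU-42011 and 258 to 350 CPM under bexarotene. Its log2 fold change was -0.45 (SE 0.28) for MSU-42011 and -0.35 (SE 0.27) for bexarotene against control. Tgm2, a transglutaminase gene whose product takes part in latent TGF-beta activation, was also highest in control replicate 2, at 146 CPM, and ran from 90.7 to 94.8 CPM in the other control tumors.

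The endothelial co-receptor gene Eng measured 124 CPM in bexarotene replicate 1 and 27.0 to 36.5 CPM in the other bexarotene-treated tumors, against 23.0 to 49.9 CPM in control tumors. Acvrl1, an endothelial type I receptor gene, measured 59.6 CPM in that tumor and 23.4 to 29.7 CPM in the other bexarotene-treated tumors. Zfyve9, which encodes the SMAD anchor SARA, measured 36.2 ± 3.93 CPM in control tumors, 34.8 ± 1.80 CPM under MSU-42011 and 31.0 ± 5.0 CPM under bexarotene (SD, n = 4 each), with overlapping tumors. Its edgeR unadjusted p was 0.0995 for bexarotene against control.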
